A study of Mus musculus with 8 samples.

Results

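The genes described here encode Kv3 voltage-gated potassium channels, represented by Kcnc1, Kcnc2 and Kcnc4. They are read by 5 probes, taken as every non-control probe whose gene name in the array files equals one of these symbols, and they are 3 of the 19830 genes tested. The scanner software called all 5 probes well above background in each of the 8 samples. The group was selected on measured values: the genotype differences of Kcnc2 and Kcnc4 were known when it was put together. The genotype comparison is therefore a description for its members, with the standard error (SE) of the fit and no test.

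Striatal RNA was taken from adult C57Bl/6j females of 2 genotypes. The wildtype group (4 samples) had 2 intact copies of Brd2, and the heterozygous group (Brd2+/-, 4 samples) had 1 intact copy and 1 copy carrying a gene-trap vector. Brd2 encodes a BET bromodomain protein that binds acetylated histones. Mice came from crosses of heterozygous parents at backcross generation 7, and their background was held to be 99% C57Bl/6J on average. The tissue label names the prefrontal cortex beside the striatum, and the sample descriptions name the striatum. Each of 4 arrays carried 2 samples of 1 genotype, the first in the dye Cy3 (replicates 1 and 3) and the other in Cy5 (replicates 2 and 4). The sources used here do not say whether a sample is 1 animal or a pool, so errors measure the spread between these samples.

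Kv3 channels open only at strongly depolarised voltages and close quickly on repolarisation, which lets a neuron fire brief action potentials at high rates. In the striatum they are best known in parvalbumin-expressing fast-spiking interneurons, where Kcnc1 and Kcnc2 encode delayed-rectifier subunits. Kcnc4 encodes a subunit with a fast-inactivating current and is known from axons and terminals. The subunits of the family can form mixed tetramers.

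The transcripts named for each probe are those listed in the array files, and no probe sequence was aligned here. The Kcnc1 probe A_52_P592305 is listed in the array files against both curated transcripts, NM_008421 and NM_001112739, and is printed whole. For the other probes the first 30 of 60 bases are printed, 5′ to 3′.
Kcnc1, both transcripts (A_52_P592305): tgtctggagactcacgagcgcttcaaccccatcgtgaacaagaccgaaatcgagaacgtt
Kcnc1, NM_008421 (A_55_P2007243): gccttgccgtcttgtacgacagactttttt
Kcnc1, NM_001112739 (A_52_P867058): gagattcgagcatgaaataaattttgtaac
Kcnc2, NM_001025581 (A_51_P507333): tctacatagaaatctaaccatttcttggtc
Kcnc4, NM_145922 (A_51_P228706): gggggaatttcatttcttttgtgtgtctcc
In the mm9 coordinates of the files the Kcnc1 probes lie on the plus strand of chromosome 7. They run from 53682767 to 53682826 (both transcripts), from 53688622 to 53688681 (NM_008421) and from 53693712 to 53693771 (NM_001112739). The probe listed for NM_008421 alone therefore starts 5855 bases beyond the probe common to both. The one listed for NM_001112739 alone starts 10945 bases beyond that common probe. The Kcnc2 probe lies on chromosome 10 from 111902778 to 111902837 (plus strand), and the Kcnc4 probe on chromosome 3 from 107241564 to 107241623 (minus strand). RefSeq (assembly GRCm38.p6) holds 5 curated Kcnc2 transcripts and 2 of Kcnc4, of which the array files list 1 each. No annotation of mm9 was used here, so exons and untranslated regions are not assigned.

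As a check of the labels, the brighter Brd2 probe measured 12.86 on average in wildtype and 12.00 in heterozygous samples (log2 intensity). The library labelled heterozygous replicate 3 stood at 12.57, next to the lowest wildtype sample at 12.64. Before any correction its spot of that probe measured 2336, below heterozygous replicate 1 (3112) and the Cy3 wildtype samples (5464 and 6110). This library was therefore near the wildtype range only after normalization. A dimmer Brd2 probe, listed for the same transcript, was not lower in heterozygous samples. It differed by 0.29 (heterozygous minus wildtype, SE 0.168, from the fit over all probes). It was well above background in only 2 wildtype and 3 heterozygous samples. The label check therefore rests on the brighter probe. Between 37.7% and 47.6% of spots were well above background in the Cy3 samples and between 65.9% and 75.5% in the Cy5 samples. The lowest share was that of heterozygous replicate 3. Values from here on are normalized log2 intensities, and differences are heterozygous minus wildtype. SDs are taken after removal of the dye effect. No gene of the 19830 passed an adjusted p under 0.05 (limma with Benjamini-Hochberg adjustment), and 1724 had an unadjusted p under 0.05.

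Kcnc2 and Kcnc4 were both at a higher level in heterozygous samples, at 196% and 184% of the wildtype mean. The estimated Kcnc1 difference varied between its 3 probes, and that of the NM_001112739 probe had a wide error (SE 0.377). The probe common to both transcripts was at 207% of the wildtype mean, the NM_008421 probe at 102% and the NM_001112739 probe at 156%. With dye effects removed, the 4 heterozygous values lay above all 4 wildtype values at 3 of the 5 probes: Kcnc2, Kcnc4 and the common Kcnc1 probe. Of all genes measured in every sample, 3.27% had groups that separated in that direction and 5.44% in the other. Because the members were proposed from this contrast, nothing is read from their share against that background.

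Kcnc2 measured 8.81, 10.41, 9.08 and 9.85 in wildtype replicates 1 to 4. In heterozygous replicates 1 to 4 it measured 10.21, 10.76, 10.26 and 10.81. The Cy5 wildtype replicate 2 thus exceeded both Cy3 heterozygous samples, while within each dye the genotypes did not overlap. The Kcnc2 signal was 0.87 higher in Cy5 than in Cy3. The wildtype mean was 9.54 ± 0.31 and the heterozygous mean 10.51 ± 0.18 (SD, n = 4 each), so Kcnc2 differed by 0.97 (SE 0.181). The difference was 1.29 in the Cy3 samples and 0.66 in the Cy5 samples. Without wildtype replicate 2 it was 1.14, and without the library labelled heterozygous replicate 3 it was 0.89.

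Kcnc4 measured 9.13, 9.80, 9.46 and 9.59 in wildtype replicates 1 to 4. In heterozygous replicates 1 to 4 it measured 10.12, 10.90, 9.99 and 10.48. Every heterozygous sample lay above every wildtype sample, here also with the dye effect left in. The wildtype mean was 9.49 ± 0.18 and the heterozygous mean 10.37 ± 0.19 (SD, n = 4 each), so Kcnc4 differed by 0.88 (SE 0.143). Kcnc4 differed by 0.76 in the Cy3 and by 0.99 in the Cy5 samples. Without the library labelled heterozygous replicate 3 its difference was 0.92.

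The Kcnc1 probe common to both transcripts measured 9.78, 10.09, 9.46 and 9.82 in wildtype replicates 1 to 4. It measured 10.56, 11.20, 10.52 and 11.07 in heterozygous replicates 1 to 4, and the groups did not overlap with the dye effect left in. The means were 9.79 ± 0.19 (SD, n = 4) and 10.84 ± 0.09 (SD, n = 4). The difference of 1.05 (SE 0.116, from the fit over all probes) was the largest of the 5 probes. It was 0.92 in Cy3, 1.17 in Cy5, and 1.08 without the library labelled heterozygous replicate 3.

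The Kcnc1 probe for NM_008421 is the brightest of the gene and so represents Kcnc1 in the fit over genes. It measured 11.63, 11.52, 10.75 and 11.13 in wildtype and 11.36, 10.91, 11.39 and 11.49 in heterozygous replicates 1 to 4. The groups overlapped throughout, and the difference was 0.03 (SE 0.225). Its sign was not stable: it was 0.19 in Cy3 and -0.12 in Cy5, and it was -0.19 without wildtype replicate 3. The differences at the common probe and at this probe were 1.02 apart on the log2 scale.

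The Kcnc1 probe for NM_001112739 measured 9.77, 10.86, 10.28 and 10.64 in wildtype replicates 1 to 4. In heterozygous replicates 1 to 4 it measured 10.62, 11.75, 11.52 and 10.22. Heterozygous replicates 2 and 3 were above every wildtype sample, and replicate 4 was below 3 of the 4. This probe had the widest spread of the 5, with means of 10.39 ± 0.32 (SD, n = 4) and 11.03 ± 0.76 (SD, n = 4). Its difference was 0.64 (SE 0.377, from the fit over all probes), or 1.04 in Cy3 and 0.24 in Cy5. Leaving out the library labelled heterozygous replicate 3 gave 0.33, and leaving out heterozygous replicate 4 gave 1.11.

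**Figure D1:**
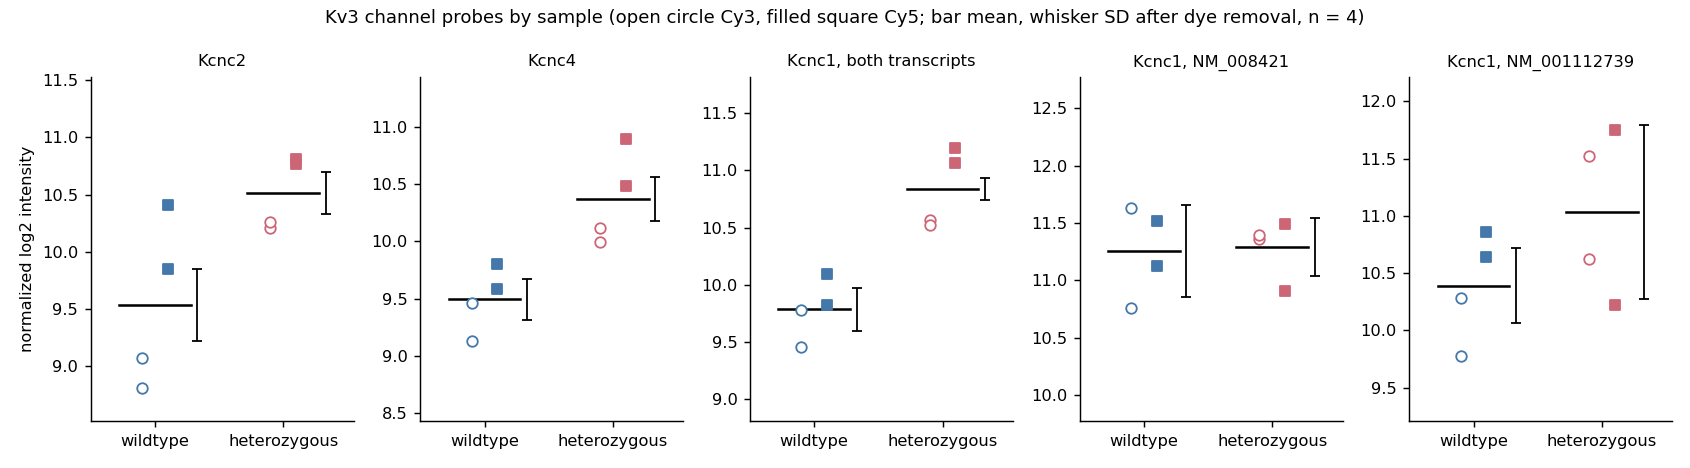
Normalized log2 intensity (y axis, spanning the same range around each probe's mean) of the 5 Kv3 probes in 4 wildtype and 4 heterozygous samples; open circles are Cy3, filled squares Cy5, bars the group means and whiskers the SD after dye removal. Within each dye the genotypes separate at the Kcnc2, Kcnc4 and common Kcnc1 probes and overlap at the NM_008421 probe of Kcnc1.

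The Kcnc2, Kcnc4 and common Kcnc1 probes were dim in Cy3. Before any correction the Kcnc2 spot measured 407 and 594 in the Cy3 wildtype samples and 1071 and 591 in the Cy3 heterozygous samples. Negative control spots there had medians of 244 to 261. In Cy5 the Kcnc2 spot measured 1037 to 1337 in wildtype and 3279 to 3771 in heterozygous samples, against control medians of 63.3 to 66.6. The library labelled heterozygous replicate 3 therefore exceeded wildtype replicate 3 at Kcnc2 only after normalization. The same held at Kcnc4, with 519 there against 755 in wildtype replicate 3, and at the common Kcnc1 probe, with 668 against 696 and 739 in both Cy3 wildtype samples. The median intensity over all spots was also lowest in that library, at 288 against 328 to 362 in the other Cy3 samples. In Cy5 that median was 212 and 235 in the wildtype samples and 359 and 321 in the heterozygous samples. The raw Cy5 spot values above are not corrected for this.

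Whether Kcnc2 and Kcnc4 varied together was examined on what remains after genotype and dye are removed, since genotype chose them. Over the 8 samples the remaining deviations of Kcnc2 and Kcnc4 had a Pearson r of 0.06 (exact permutation p = 0.893, two-sided). Spearman's rho was 0.05 (exact permutation p = 0.935). Adjusted over the 3 pairs of members, these p-values were 0.893 and 1. Without the samples farthest from the median of Kcnc2, wildtype replicate 2 and heterozygous replicate 3, r was 0.19 (n = 6, exact permutation p = 0.714). Wildtype replicate 2 had the highest Kcnc2 deviation (0.44) and a Kcnc4 deviation of only 0.05. Heterozygous replicate 2 had the highest Kcnc4 deviation (0.27) and a Kcnc2 deviation of -0.18. Samples that share an array are not fully independent, and 5 degrees of freedom remain, so a moderate relation could be missed. Exact here means that every pairing was enumerated. Deviations left by a fit are not freely exchangeable, so the p-values of these correlations are approximate. The relation also changed with the scaling: r was 0.72 (exact permutation p = 0.0465) without scaling between arrays and 0.73 (exact permutation p = 0.0439) in the authors' deposited value table.

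The other pairs did not pass either. Kcnc1 (NM_008421 probe) and Kcnc2 had an r of 0.21 (exact permutation p = 0.624) and a rho of 0 (exact permutation p = 1). Kcnc1 and Kcnc4 had an r of -0.72 (exact permutation p = 0.0511, adjusted p = 0.153) and a rho of -0.36 (exact permutation p = 0.389). That relation rested on wildtype replicate 3 and heterozygous replicate 2, without which r was 0.30 (n = 6, exact permutation p = 0.539).

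**Figure D2:**
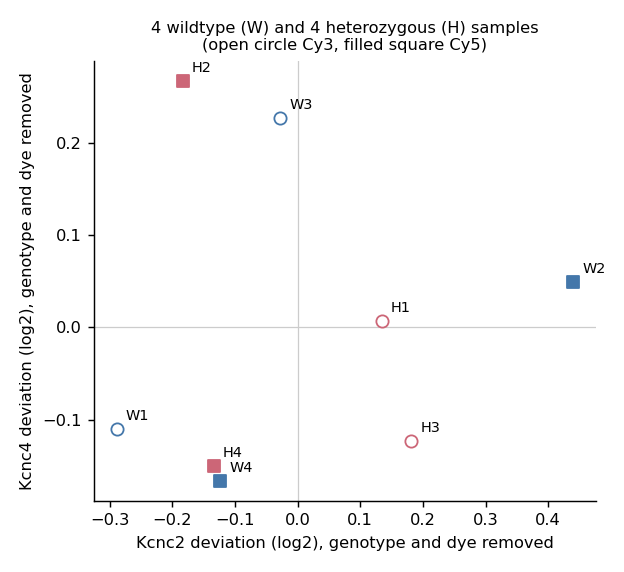
Deviation of Kcnc4 (y axis, log2) against that of Kcnc2 (x axis, log2) in each sample after genotype and dye were removed; W is wildtype, H heterozygous, open circles are Cy3 and filled squares Cy5. The points show no shared direction (r = 0.06, n = 8), with wildtype replicate 2 far to the right at 0.44.

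The genes whose pattern over the 8 samples was most like each member were ranked by Pearson r after removal of dye, among 8754 other named genes well above background in every sample. This measure includes the genotype difference and is a description. Most like Kcnc2 were Unk (r = 0.98), the sialyltransferase gene St3gal1 (0.98), the receptor kinase gene Grk3 (0.98), the phosphatase gene Ppm1e (0.97) and the adhesion receptor gene Adgra1 (0.96). Most like Kcnc4 were 4933439C10Rik (r = 0.98), Adam11 (0.98), Ggt7 (0.97), the transcription factor gene Bcl11a (0.97) and the mannose phosphate isomerase gene Mpi (0.97). Kcnc2 stood at place 86 of 8754 in likeness to Kcnc4, and Kcnc4 at place 89 in likeness to Kcnc2. Most like the common Kcnc1 probe were Glo1 (r = 0.98), Naxe (0.97), the postsynaptic scaffold gene Dlgap1 (0.96), Plppr2 (0.95) and the kinase gene Hipk2 (0.95). In likeness to that probe Kcnc4 stood at place 11 and Kcnc2 at place 67. The NM_008421 probe of Kcnc1 had other neighbours, namely Bzw1 (r = 0.99), Twf1 (0.98), Ipo5 (0.98), Tulp4 (0.98) and Usp25 (0.97), and placed Kcnc2 at 3451 and Kcnc4 at 5593.

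Among the KCNE subunits, small membrane proteins that can join Kv channels, Kcne2 differed by 0.76 (SE 0.396, limma adjusted p = 0.614) and Kcne3 by 0.11 (SE 0.114, limma adjusted p = 0.775). Without the library labelled heterozygous replicate 3 these differences were 0.33 and 0.02, and without heterozygous replicate 4 that of Kcne2 was 1.17 and that of Kcne3 0.17. They were well above background in 5 and 4 of the 8 samples. Kcne1, Kcne4 and Kcne5 did not enter the test.

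Other Kv alpha subunits did not share a direction. Of 36 listed genes 30 were tested, 15 with a positive and 15 with a negative difference, and their median was -0.03, beside -0.02 over all genes. None passed the adjusted threshold. At an unadjusted p under 0.05 there was 1 higher gene and 2 lower genes, where 3.89% and 4.81% of all genes met that mark. The lowest was the delayed-rectifier gene Kcna5, at -0.75 (SE 0.158, limma adjusted p = 0.426), and the higher gene at that mark was Kcna3, at 0.43 (SE 0.149, limma adjusted p = 0.517). Each of these 30 genes had a difference below those of Kcnc2, Kcnc4 and the common Kcnc1 probe, and the highest was Kcnf1 at 0.47 (SE 0.359). Kcnc2 and Kcnc4 were chosen with their differences known, and the common probe is the highest of those of Kcnc1. Nothing is therefore read from their place above these genes. Leaving out the library labelled heterozygous replicate 3 brought Kcnf1 to 0.77, and leaving out heterozygous replicate 4 brought it to 0.12. With replicate 3 left out, 17 of the 30 had a positive difference (median 0.06), and 3 were higher and 3 lower at an unadjusted p under 0.05. In that setting 2223 of 19798 genes met that mark in either direction.

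**Figure D3:**
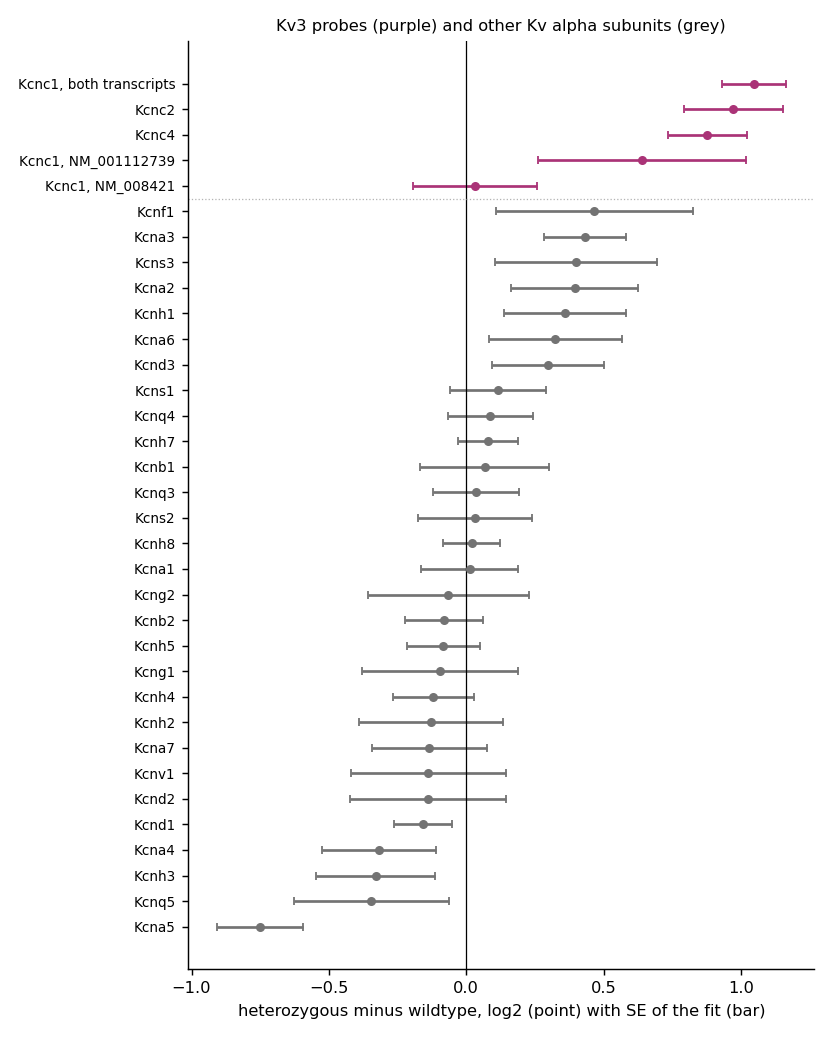
Heterozygous minus wildtype difference (x axis, log2, with the SE of the fit as bars) of the 5 Kv3 probes in purple and of 29 of the 30 other Kv alpha subunits tested in grey (y axis, 1 row each). Kcnc2, Kcnc4 and the common Kcnc1 probe lie at 0.88 to 1.05, and the grey points lie between -0.75 and 0.47. The Kv3 group was put together with the Kcnc2 and Kcnc4 differences known, so the gap is a description.

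Marker lists of other cell types also differed in level between these samples, though no marker on them passed the adjusted threshold. The mean levels of the fast-spiking, thalamic and hypothalamic, and choroid plexus lists were highest in the library labelled heterozygous replicate 3. That of the striatal list was lowest there, and that of the cortical list was highest in heterozygous replicate 1. In bulk tissue, a change in the number of cells of a type and a change in RNA per cell cannot be told apart. A positive difference was found in 45.54% of all genes and in 10 of 13 tested markers of fast-spiking interneurons (median 0.23). At an unadjusted p under 0.05, 3.89% of all genes and 4 of these markers were higher. The log2 of their summed intensity was 15.25 to 15.52 in wildtype and 15.46 to 16.10 in heterozygous samples, so the groups overlapped. Pvalb, the calcium-binding protein that defines these cells, was well above background in all samples and differed by 1.58 (SE 0.658, limma adjusted p = 0.56). With dye removed it stood at 12.41, 13.61, 15.21 and 12.27 in heterozygous replicates 1 to 4, beside a wildtype mean of 11.80. The difference was 2.44 in Cy3 and 0.71 in Cy5. These values are from the brighter Pvalb probe. Another Pvalb probe, also well above background in all samples, differed by 1.22 (SE 0.698, from the fit over all probes). Its difference was 2.52 in Cy3 and -0.09 in Cy5. Without the library labelled heterozygous replicate 3 the brighter Pvalb probe differed by 0.80. The list then had 11 positive differences of 13 and a median of 0.08. In that setting 2 of its markers were higher at an unadjusted p under 0.05. Over all genes, 2223 of 19798 met that mark in either direction. Sox6, a transcription factor gene of the fast-spiking interneuron lineage, differed by 0.41 (SE 0.157, limma adjusted p = 0.532). Lhx6, another transcription factor gene of that lineage, differed by -0.06 (SE 0.255), and Gad1, the GABA-synthesis gene, by 0.07 (SE 0.256). Neither sign was stable: without replicate 3 Lhx6 differed by 0.21 and Gad1 by 0.37, and without heterozygous replicate 4 Gad1 differed by -0.17.

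Of 13 cortical excitatory neuron markers 12 had a positive difference (median 0.82), beside 45.54% of all genes. At an unadjusted p under 0.05, 3.89% of all genes and 7 of these markers were higher. Their summed level was 13.13 to 13.72 in wildtype and 13.84 to 15.06 in heterozygous samples, without overlap. By mean level the list did not separate the genotypes as clearly, since wildtype replicate 2 stood 0.46 above the wildtype mean. Heterozygous replicates 1 to 4 stood 1.44, 1.11, 0.70 and 0.46 above it, so the last was level with wildtype replicate 2. Kcnc2, with dye removed, stood at 10.65, 10.33, 10.69 and 10.38 in these samples and Kcnc4 at 10.38, 10.64, 10.25 and 10.22. Slc17a7, which loads glutamate into vesicles in cortical neurons, differed by 2.15 (SE 0.406, limma adjusted p = 0.426) and was well above background in 6 of 8 samples. Nrn1 differed by 1.81 (SE 0.388, limma adjusted p = 0.426). Without the library labelled heterozygous replicate 3 the list again had 12 positive differences of 13, with a median of 0.97.

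Of 9 thalamic and hypothalamic markers 8 had a positive difference (median 0.80), where 45.54% of all genes did. Their summed level was 11.96 to 12.38 in wildtype and 12.01 to 14.41 in heterozygous samples. The list's mean level was highest in the library labelled heterozygous replicate 3, at 1.99 above the wildtype mean, and was -0.31 in heterozygous replicate 1. Without replicate 3 the list had 6 positive differences of 9 and a median of 0.11. Slc17a6 differed by 1.14 (SE 0.233, limma adjusted p = 0.426) and Rora by 0.55 (SE 0.165, limma adjusted p = 0.498). Without replicate 3 they differed by 0.92 and 0.42. Choroid plexus markers had a positive difference in 6 of 7 (median 0.50), with Slc4a5 at 0.38 (SE 0.238, limma adjusted p = 0.661) and Kcnj13 at 0.59 (SE 0.471, limma adjusted p = 0.71). Their summed level was 12.74 to 13.87 in wildtype and 11.93 to 15.88 in heterozygous samples. The list's mean level, relative to wildtype, was -0.77, 0.33, 1.83 and 0.46 in heterozygous replicates 1 to 4, so it too was highest in replicate 3. Without that library 4 of 7 were positive with a median of 0.01, Slc4a5 differed by 0.12 and Kcnj13 by 0.01.

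All 13 striatal projection neuron markers had a negative difference (median -0.43), where 45.54% of all genes had a positive one. Foxp1 differed by -0.75 (SE 0.155, limma adjusted p = 0.426), Pde10a by -1.10 (SE 0.376, limma adjusted p = 0.521), and the dopamine receptor genes Drd1 and Drd2 by -0.53 (SE 0.348) and -0.28 (SE 0.299). Their summed level was 18.62 to 18.84 in wildtype and 17.73 to 19.03 in heterozygous samples. Without the library labelled heterozygous replicate 3, 10 of 13 were negative (median -0.16). Foxp1 then differed by -0.63, Pde10a by -0.63, Drd1 by -0.16 and Drd2 by 0.02. Kcnc2, Kcnc4 and the common Kcnc1 probe differed by 0.89, 0.92 and 1.08 without that library. The part of these cell types in the Kv3 differences was not tested.

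**Figure D4:**
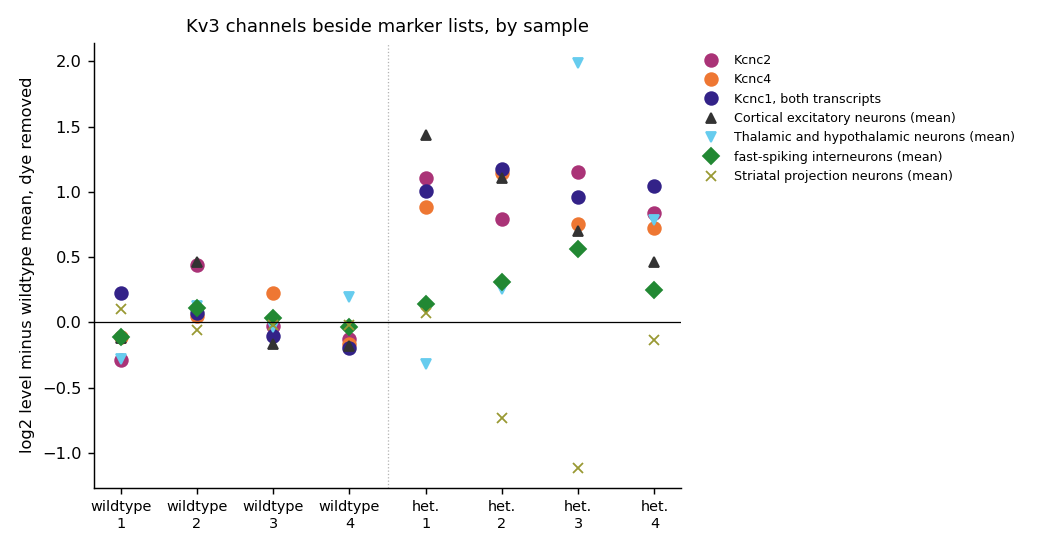
Log2 level minus the wildtype mean, dye removed (y axis), of Kcnc2, Kcnc4 and the common Kcnc1 probe (circles) and the mean of 4 marker lists (other symbols) in each sample (x axis). The circles are above all wildtype circles in each heterozygous sample. The cortical list lies between 0.46 and 1.44 in the heterozygous samples and also reaches 0.46 in wildtype replicate 2. The thalamic and hypothalamic list peaks at 1.99 in heterozygous replicate 3.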

How the data were processed

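Spot and background intensities came from the authors' scanner files, made by Agilent Feature Extraction 10.7.3.1 on array design 026655 (build mm9), per the file headers. Processed intensities in the same deposited files were already background-subtracted and dye-normalized by that software. The authors' deposited value table holds a ratio, each spot's background-subtracted median over its column's median. This was found from the values (all listed spots matched at a relative tolerance of 1e-04, with column medians of 1), and the table is not log-transformed, not centred by gene and holds no ratio between samples.

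The channel of a sample's own dye gave its values. With limma 3.58.1 in R 4.3.3, mean intensities received normexp background correction (offset 50), loess within arrays and Aquantile scaling between them, and log2 values of single channels were then taken. Control spots (1377) and outlier-flagged spots were left out, and no spot was saturated. Probes well above background in at least 4 of 8 samples (25338 of 39429) were kept, and the brightest represented each gene. Names came from RefSeq (GRCm38.p6) for 27234 probes through their accession and 3576 through a symbol, and 8619 kept the file's name. The lmFit and eBayes model held genotype, dye and, as a random block, the array (correlation 0.0077), with Benjamini-Hochberg adjustment at 0.05. SEs of the Kcnc1 probes that do not represent the gene come from the same fit over all probes. All arrays were on 1 slide, and each held 1 genotype, so an effect of a single array and of genotype cannot be told apart in full. Correlations used permutation over all pairings, and their p-values are approximate because the deviations come from a fit. On data simulated from the 19830 genes, the fit recovered 61% of 100 genes changed 2-fold and 98% of 100 changed 4-fold, with 8 false calls. The simulated noise was independent between genes and samples. Shifts shared by many genes in a sample are therefore not covered, and recovery in the real data may differ.

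The members and lists were chosen with earlier results of these data known. Named by rule were all member probes, KCNE genes, Brd2, Pvalb, Gad1, Slc17a7, Drd1, Drd2, the 2 smallest p of each list and the 5 genes most like each member. A further gene that the rule picks is not reported here. Lhx6, Kcna3 and Kcnf1, and the likeness of the common Kcnc1 probe, were chosen after their values were seen. Alternatives covered background correction, normalization, the value table, the filter, the probe rule, blocks, dye, variance model and each sample left out. Figures were drawn with matplotlib 3.10.9.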

Additional observations from a re-analysis of the deposited data

How the results depend on the processing

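The Kcnc4 difference stayed positive and within the spread between replicates of its reported value in all 22 alternatives (0.76 to 1.06, and 0.77 to 0.96 with a sample left out). Kcnc2 stayed positive in all 22 and moved by more than that spread in 3, at 1.38 with the scanner's processed signals, 1.29 in the Cy3 and 0.66 in the Cy5 samples alone (0.88 to 1.14 with a sample left out). The common Kcnc1 probe, examined under alternatives added after seeing the data, ranged from 0.92 to 1.22 in 21. These counts include settings that could not move the differences of Kcnc2 and Kcnc4, which have a single probe each in a balanced design. Such settings are the filters, the mean of probes, the blocks, leaving out the dye term and the variance model. Those of them run on the common Kcnc1 probe could not move its difference either. The Kcnc1 difference of the brightest probe was 0.57 as a mean of the 3 probes, -0.031 in the deposited value table, -0.12 in Cy5 alone, and from -0.19 to 0.20 with a sample left out. It was negative without wildtype replicate 3 (-0.19), wildtype replicate 4 (-0.021) or heterozygous replicate 4 (-0.030).

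Without scaling between arrays the median difference of all genes moved from -0.02 to 0.09; relative to it Kcnc2 differed by 1.06 and Kcnc4 by 0.96. The residual correlation of Kcnc2 and Kcnc4 was 0.72 in that setting, 0.73 in the value table, and between -0.15 and 0.55 with a sample left out, where it was negative without wildtype replicate 1 (-0.15), 2 (-0.13) or 4 (-0.063) or heterozygous replicate 4 (-0.059). The cause was not tested. Under an alternative added after seeing the data, without the library labelled heterozygous replicate 3, 2 of the other named genes changed sign, Lhx6 to 0.21 and Drd2 to 0.019.

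Genes at an unadjusted p under 0.05 numbered 1724, and 130 without scaling between arrays, 972 in the value table, 956 when a probe had to be well above background in all 8 samples (11664 genes tested), 616 in Cy3 alone, and 796 to 2323 with a sample left out, the lowest without heterozygous replicate 4. After adjustment 1 gene passed in Cy5 alone and 0 in every other setting. With the replicate block the Kcnc2 difference was 0.97 (SE 0.178), that of Kcnc4 0.88 (SE 0.129), and 2042 genes had an unadjusted p under 0.05. Same-numbered samples share a dye; with dye removed their deviations correlated at 0.16, -0.29, -0.18 and -0.25 for numbers 1 to 4 and no sample correlated best with its own number, so the numbers were not taken to pair samples. Dim Cy3 signal and 4 samples per genotype limit what can be resolved.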
